A study of Homo sapiens with 12 samples.

Results

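The transcription regulators that set the identity of plasma cells and B cells were followed in INA-6 cells after Raf or MEK inhibition. They comprised IRF4, PRDM1, XBP1, POU2AF1, ELL2, IKZF1, IKZF3, BCL6, PAX5 and BACH2. Every probe set that the platform annotation pairs with one of these 10 symbols was taken, which gave 33 of the 54613 probe sets tested. INA-6 is an established line of human myeloma cells that needs interleukin-6 to grow. One group of cells received the Raf inhibitor SB590885, a second the MEK inhibitor PD325901, and the control group only the solvent DMSO. Each of the 3 groups had 4 arrays, all from this 1 line, kept in medium with interleukin-6 and serum. The labels state neither concentrations nor treatment times, so the 2 inhibitors are set side by side as applied and not at equal doses. RNA levels are log2 values from Affymetrix HG-U133 Plus 2.0 arrays.

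A plasma cell is a B cell that has turned into an antibody factory, and opposed sets of transcription factors hold the states before and after that change. PAX5, BCL6 and BACH2 maintain the B cell and germinal centre programmes. PRDM1, which encodes the repressor Blimp-1, silences them together with IRF4, and XBP1 then expands the secretory machinery. Myeloma cells are malignant plasma cells that depend on IRF4 and on the Ikaros family members IKZF1 and IKZF3, the proteins that lenalidomide directs to degradation through cereblon.

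Of 14 plasma cell markers, 13 lay above the table's median of 6.92 in each group, against 7 of 13 B cell markers and 1 of 7 monocyte markers. Of 11 T and NK cell markers, 5 did so with SB590885, 6 with PD325901 and 5 with DMSO. Each marker was read from its highest probe set. Of the 19775 genes read in this way, 12512 besides XBP1 lay above that median by their mean over the 12 arrays. A level above the median is therefore common and does not by itself mark a gene as expressed. DUSP6, a phosphatase gene induced by ERK signalling, averaged 8.64 ± 0.17 with SB590885, 6.97 ± 0.25 with PD325901 and 9.62 ± 0.27 with DMSO (SD, n = 4 each). The limma adjusted p against DMSO was 0.00759 for SB590885 and 7.12e-06 for PD325901. ETV5, also taken as a check on the inhibitors, differed from DMSO by -1.21 with SB590885 (adjusted p = 0.000117) and -1.82 with PD325901 (adjusted p = 5.32e-07). SPRED2, another check, differed by -1.83 with PD325901 (adjusted p = 1.32e-06). With SB590885 it differed by -0.34 and did not pass (adjusted p = 0.0731, 0.00548 with the replicate number as a block). Arrays 3 and 4 of every group bear an R in their labels, whose meaning is not given, and the 6 marked arrays had a smaller SD over probe sets (1.43 ± 0.03) than the 6 others (1.54 ± 0.01). The difference between 3′ and 5′ GAPDH control probe sets, a measure of RNA integrity, was 0.44 ± 0.04, 0.43 ± 0.06 and 0.37 ± 0.03 in the SB590885, PD325901 and DMSO groups. The median of 12 interferon-response genes, chosen after their values were seen, was 11.12 on PD325901 replicate 2 and 11.53 on DMSO replicate 2, against 6.80 to 8.81 on the other 10 arrays. Without these 2 arrays, 0, 0 and 2 member probe sets passed in the 3 comparisons described below, against 5, 0 and 4 with them. Same-numbered arrays deviated together, so each adjusted p is followed, where the call changes, by that of a fit with the replicate number as a block. The fits that left out arrays were made without the block. Calls said to be kept or lost in them are those of the fit without the block.

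Without the block, 5 of the 10 genes passed at 1 or more of their 2 to 9 probe sets with SB590885 against DMSO, and 0 with PD325901. The share of all genes passing at any probe set was not counted. In a fit with 1 probe set a gene, 3 of the 10 passed with SB590885 against DMSO, beside 649 of 19775 genes. With PD325901 against DMSO 0 passed in that fit, beside 117 of all genes. With SB590885 against DMSO, 5 of the 33 probe sets passed a limma Benjamini-Hochberg adjusted p of 0.05, beside 1.96% of all probe sets. BCL6 was higher at 1 of 3 probe sets. Lower were XBP1, PAX5 and POU2AF1 at 1 of 2 probe sets each and IKZF1 at 1 of 9. With PD325901 against DMSO, 0 of 33 passed, beside 0.346% of all probe sets, and 4 had an unadjusted p under 0.05. Between SB590885 and PD325901, 4 of 33 passed, beside 1.78% of all: BCL6 was higher with SB590885, and XBP1, POU2AF1 and ELL2 probe sets were lower. With the replicate block the counts were 12, 2 and 13, beside 13.4%, 4.81% and 12.9% of all probe sets. The groups did not overlap for 10, 0 and 8 of the 33, beside 8.13%, 3.52% and 6.24% of all. The median difference over the 33 was -0.08, 0.04 and -0.14 in those 3 comparisons, and 0.00 in each over all probe sets. In all, 17 of the 33 probe sets passed in no comparison with or without the block, with differences between -0.19 and 0.27. In these bulk RNA samples, fewer cells expressing a gene and less of its RNA per cell cannot be told apart. The comparisons with DMSO share the 4 control arrays.

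**Figure D1:**
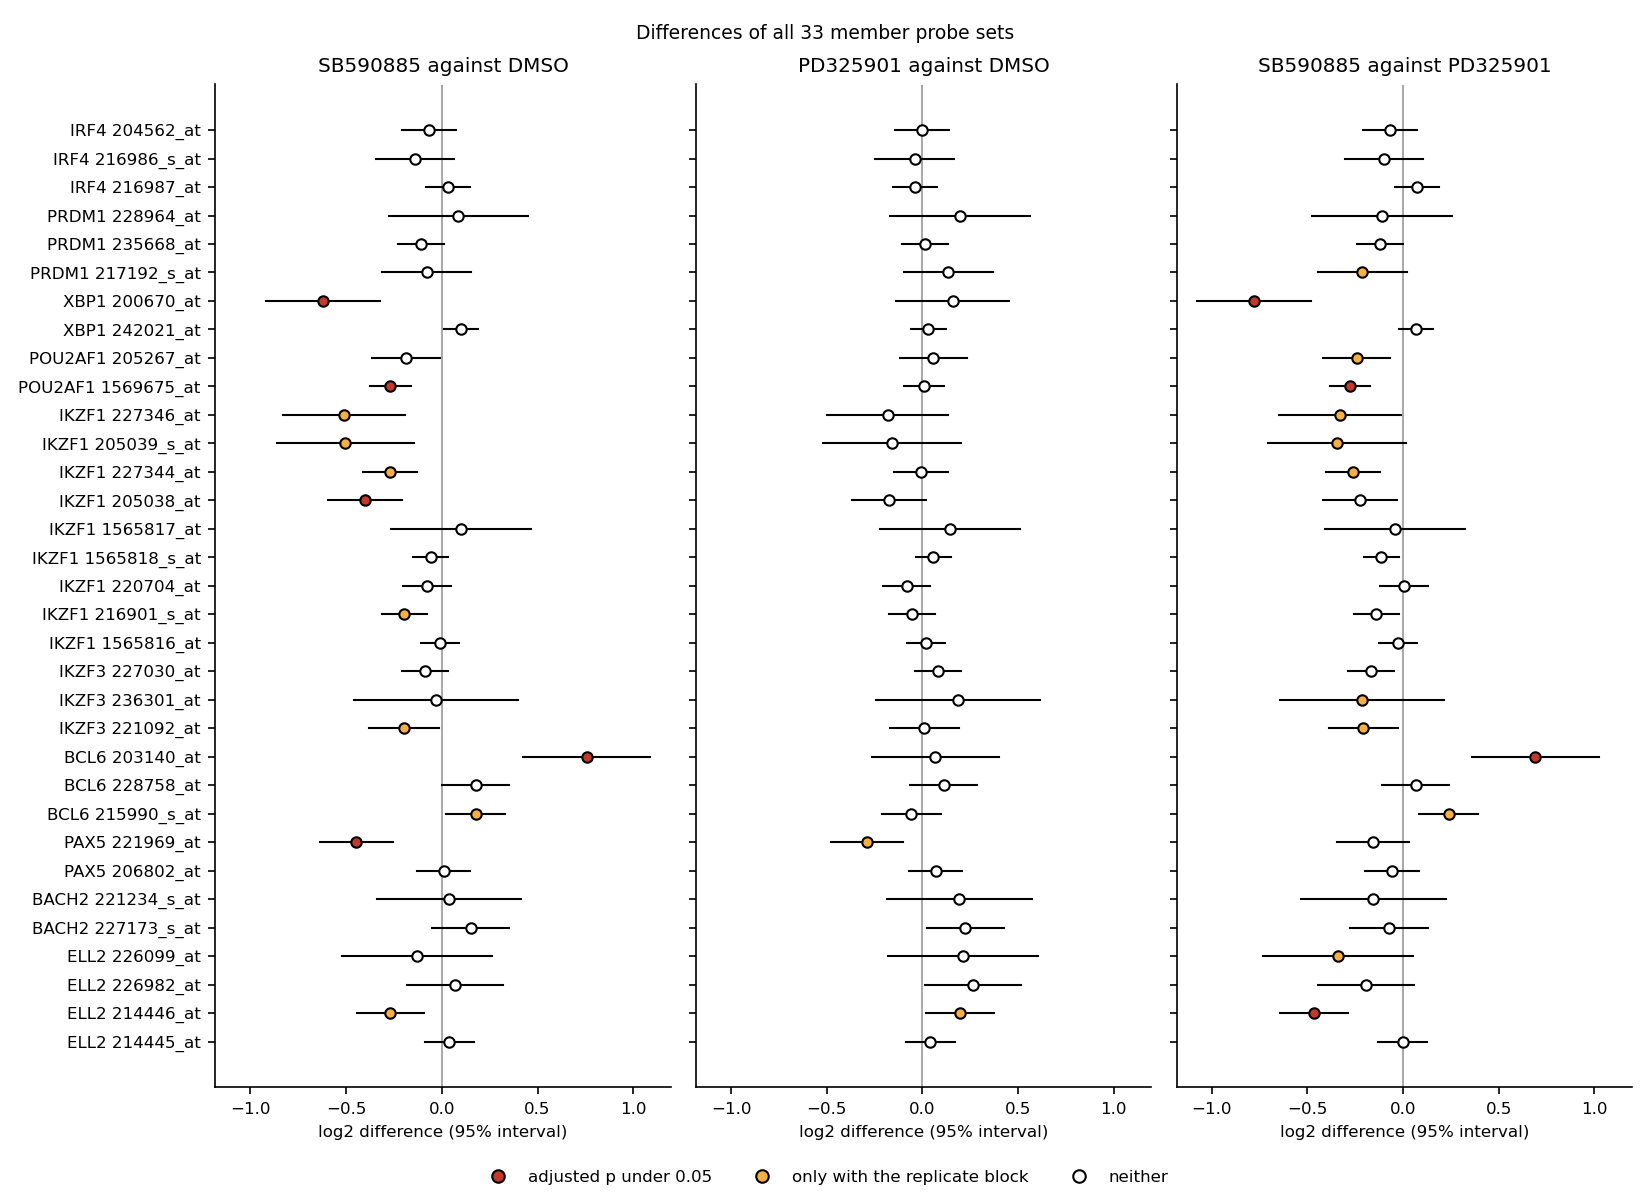
Differences in log2 level of the 33 probe sets, with 95% intervals, for SB590885 (SB) against DMSO, PD325901 (PD) against DMSO and SB590885 against PD325901. Red points passed an adjusted p of 0.05, orange points passed only with the replicate block, and white points passed in neither; BCL6 lies furthest right (0.76) and XBP1 furthest left (-0.62) among the red points of the first comparison.

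XBP1, the factor that switches on chaperone and secretion genes once IRE1 has spliced its mRNA, was lower with SB590885 than in either other group. Its main probe set (200670_at) read 12.16, 12.38, 12.26 and 11.92 with SB590885, 13.03, 13.19, 12.68 and 12.94 with PD325901, and 13.08, 12.81, 12.51 and 12.81 with DMSO. All 4 SB590885 arrays lay below every array of both other groups, whereas PD325901 and DMSO overlapped. The difference of SB590885 from DMSO was -0.62 (SE 0.14, a fold of 0.65; adjusted p = 0.0406, 0.000474 with the block). The call was lost without any 1 of DMSO replicates 1, 2 and 4, SB590885 replicates 1 to 4 or PD325901 replicate 4, at adjusted p between 0.0557 and 0.123. SB590885 against PD325901 gave -0.78 (95% interval -1.08 to -0.48; adjusted p = 0.0133), a call kept without any 1 of the 12 arrays. PD325901 against DMSO gave 0.16, with an interval of -0.14 to 0.45. A second probe set (242021_at), below the table's median, gave 0.10 with SB590885 against DMSO and passed in no comparison. Whether the main probe set reads the spliced or the unspliced mRNA was not analysed here.

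The XBP1 promoter is shown because the gene's RNA fell and its own promoter carries the element through which endoplasmic reticulum stress acts on it. The window spans the start of the gene in RefSeq on GRCh38.p14, chr22:28800520-28800819, minus strand. Capitals mark a match to the stress response element, CCAAT and CCACG with 9 free bases between them, at bases 199 to 217.
XBP1: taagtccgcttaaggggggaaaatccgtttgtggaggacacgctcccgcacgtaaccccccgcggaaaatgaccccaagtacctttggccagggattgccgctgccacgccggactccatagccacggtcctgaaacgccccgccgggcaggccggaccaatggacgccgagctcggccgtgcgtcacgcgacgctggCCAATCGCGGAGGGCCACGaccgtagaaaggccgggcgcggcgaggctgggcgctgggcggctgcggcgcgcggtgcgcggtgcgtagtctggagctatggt
The element, searched on both strands, occurs in 27 of 35116 RefSeq promoter windows (0.0769%). By its letters, the element always contains a match to the CCAAT box, found in 34.6% of windows. A separate CCAAT box lies at bases 158 to 162. A match describes the letters and not a bound site.

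The genes around XBP1 did not share 1 direction. ERN1, which encodes the IRE1 sensor that splices XBP1, averaged 10.30 ± 0.43 with SB590885, 8.79 ± 0.23 with PD325901 and 9.04 ± 0.17 with DMSO. It rose 2.39-fold with SB590885 against DMSO (adjusted p = 0.00715), and was 2.83-fold higher than with PD325901 (adjusted p = 0.00192). The other 4 measured genes of the list around the IRE1 sensor passed in no comparison without the block. The list also holds EIF2AK3, which encodes PERK, a stress sensor separate from IRE1. With the block, EIF2AK3 was higher with SB590885 (0.62, adjusted p = 0.0103) and with PD325901 (0.68, adjusted p = 0.0137) than with DMSO. RTCB, the ligase that joins spliced XBP1 mRNA, was lower with both (-0.29 and -0.39; adjusted p = 0.0149 and 0.00516 with the block). HSPA5, the chaperone BiP, was lower with SB590885 than with DMSO (-0.18, adjusted p = 0.0311 with the block) and than with PD325901 (-0.35, adjusted p = 0.000402 with the block). Of 20 XBP1 target genes, 0 passed with SB590885 against DMSO and 0 with PD325901 against DMSO. With the block, 3 were higher and 3 lower with SB590885, and 14 were higher and 0 lower with PD325901. The shares passing with the block over all genes were 17.9% and 7.07%. The differences for PD325901 were above 0 in 20 of 20 genes, between 0.10 and 0.63 with a median of 0.24, beside -0.0029 over all genes. DNAJB9, a chaperone cofactor, had the largest. Between SB590885 and PD325901, SDF2L1 (-0.63, adjusted p = 0.0173) and MANF (-0.39, adjusted p = 0.0346), both endoplasmic reticulum chaperone-related proteins, were lower. The differences were below 0 in 18 of 20 targets with a median of -0.32, beside 0.0005 over all genes. With the block 15 were lower and 2 higher, beside 17.2% of all genes passing.

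**Figure D2:**
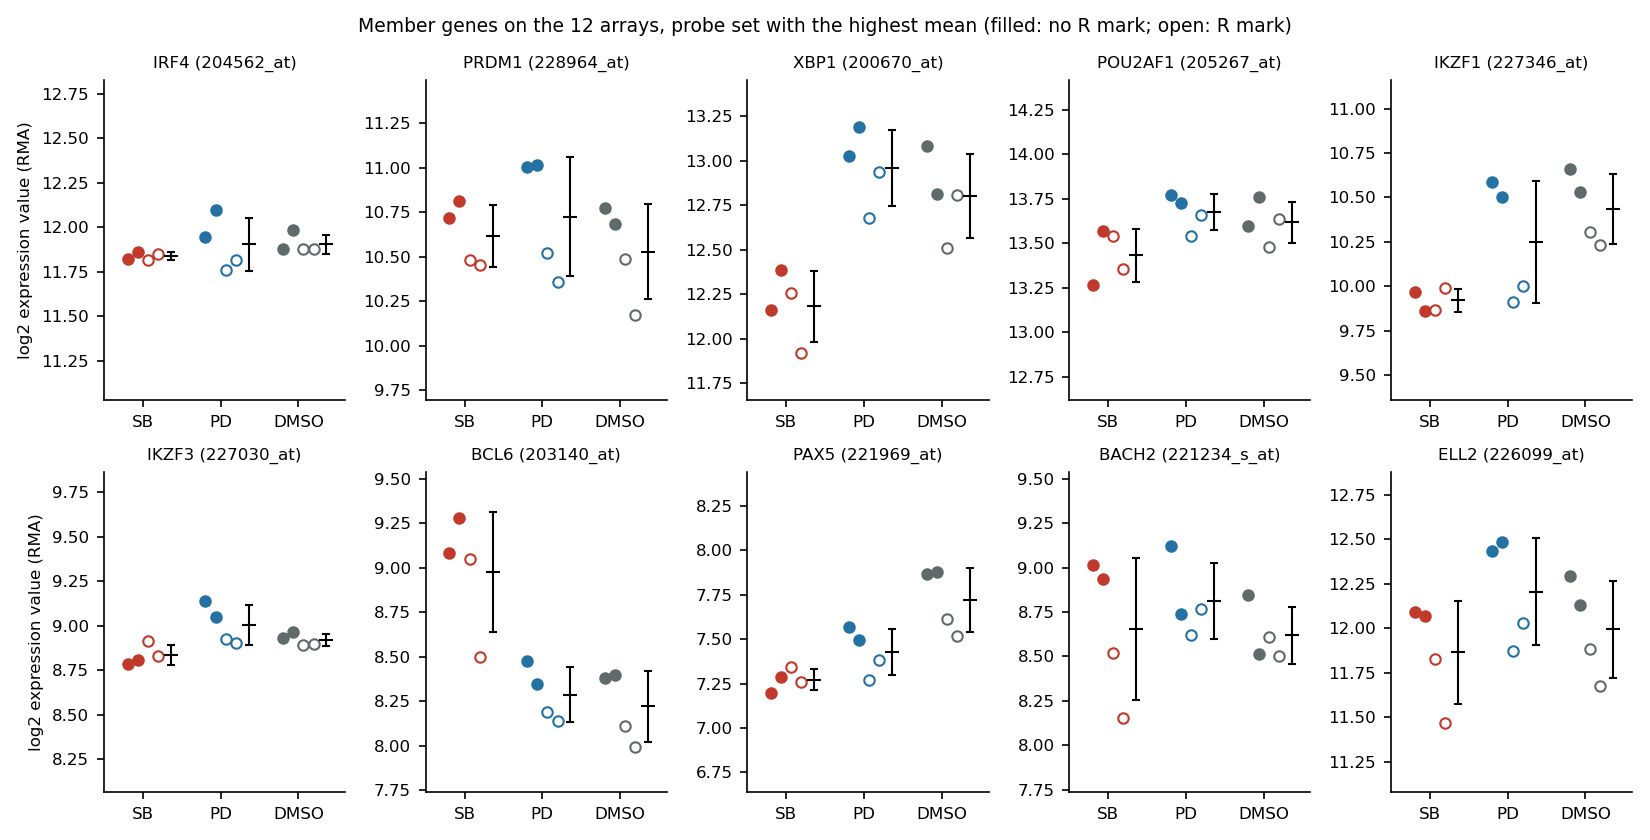
Log2 RNA level of the members on each array, by group (SB590885, PD325901, DMSO), with the mean and SD as bars; filled points are arrays without and open points arrays with the R mark. The 4 SB590885 points lie below all others for XBP1 (11.92 to 12.38) and above all others for BCL6 (8.50 to 9.28).

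POU2AF1 encodes OCA-B, a coactivator that joins octamer factors on immunoglobulin promoters. Its probe set 205267_at differed by -0.19 with SB590885 against DMSO (adjusted p = 0.387) and by -0.24 against PD325901 (adjusted p = 0.207, 0.0251 with the block). The other (1569675_at), below the table's median, read 6.55, 6.42, 6.58 and 6.52 with SB590885, 6.82, 6.84, 6.78 and 6.72 with PD325901, and 6.78, 6.86, 6.72 and 6.78 with DMSO. The SB590885 arrays were lowest with no overlap. SB590885 differed from DMSO by -0.27 (adjusted p = 0.0169) and from PD325901 by -0.28 (adjusted p = 0.0135). The first call was lost without DMSO replicate 1, DMSO replicate 2 or SB590885 replicate 2 (adjusted p 0.0558 to 0.0583). The 2 probe sets had the same sign and unequal size.

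ELL2 encodes an elongation factor that, with its partner EAF2, promotes the secreted form of immunoglobulin heavy chain mRNA. Of its 4 probe sets, 214446_at read 8.65, 8.52, 8.45 and 8.41 with SB590885, 9.13, 9.10, 8.82 and 8.85 with PD325901, and 8.80, 8.90, 8.71 and 8.71 with DMSO. SB590885 lay below both other groups without overlap. The difference of SB590885 from PD325901 was -0.46 (SE 0.08, adjusted p = 0.0133), a call kept without any 1 of the 12 arrays. Against DMSO the values were -0.27 for SB590885 (adjusted p = 0.139, 0.00168 with the block) and 0.20 for PD325901 (adjusted p = 0.788, 0.031 with the block). Probe set 226099_at, the one with the highest mean, differed by -0.13 with SB590885 against DMSO (adjusted p = 0.929). Between SB590885 and PD325901 it gave -0.34 (adjusted p = 0.544, 0.00294 with the block). Probe sets 226982_at and 214445_at passed in no comparison with or without the block. They gave 0.07 and 0.04 with SB590885 against DMSO, and -0.19 and -0.0016 between the inhibitors. EAF2 averaged 10.99 with SB590885, 12.09 with PD325901 and 11.34 with DMSO. It rose by 0.76 with PD325901 against DMSO (adjusted p = 0.00382) and was lower with SB590885 than with PD325901 by a difference of -1.10 (adjusted p = 0.000277). Its difference with SB590885 against DMSO was -0.35 (adjusted p = 0.0938, 0.00089 with the block). EAF2 was the 1 of 11 genes of the elongation complex list to pass without the block. With the block, 1 was higher and 2 lower with SB590885 against DMSO, 1 higher and 1 lower with PD325901 against DMSO, and 2 higher and 2 lower between SB590885 and PD325901. Over all genes, 17.9%, 7.07% and 17.2% passed with the block in those comparisons.

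IRF4, the factor on which myeloma cells depend, and PRDM1 did not pass in any comparison without the block. IRF4 (204562_at) read 11.82, 11.86, 11.82 and 11.85 with SB590885, 11.95, 12.10, 11.76 and 11.81 with PD325901, and 11.88, 11.99, 11.88 and 11.88 with DMSO. SB590885 arrays lay below all DMSO arrays, with a mean difference of -0.07 and a 95% interval of -0.21 to 0.07. The other 2 IRF4 probe sets also passed in no comparison. PRDM1 (228964_at) read 10.71, 10.81, 10.48 and 10.45 with SB590885, 11.01, 11.02, 10.52 and 10.36 with PD325901, and 10.77, 10.68, 10.49 and 10.17 with DMSO, with the groups overlapping. The differences from DMSO were 0.09 for SB590885 (adjusted p = 0.959) and 0.20 for PD325901 (adjusted p = 1, 0.0952 with the block). A second PRDM1 probe set (217192_s_at) was lower with SB590885 than with PD325901 only with the block (-0.21, adjusted p = 0.032).

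IKZF1 encodes Ikaros and is read by 9 probe sets. One (205038_at) read 8.29, 8.26, 8.55 and 8.67 with SB590885, 8.81, 8.68, 8.57 and 8.61 with PD325901, and 8.78, 8.80, 8.87 and 8.92 with DMSO. SB590885 lay below all DMSO arrays and overlapped PD325901. The difference from DMSO was -0.40 (adjusted p = 0.041). It was lost without any 1 of the 4 DMSO replicates, SB590885 replicates 1 to 3 or PD325901 replicates 2 and 4 (adjusted p 0.0511 to 0.127). Probe set 227346_at read 9.97, 9.86, 9.87 and 9.99 with SB590885, 10.59, 10.50, 9.91 and 10.00 with PD325901, and 10.66, 10.53, 10.31 and 10.23 with DMSO. SB590885 again lay below DMSO without overlap, by -0.51 (adjusted p = 0.114, 0.00161 with the block). Its difference from PD325901 was -0.33 (adjusted p = 0.414, 0.0272 with the block), -0.63 among unmarked arrays and -0.03 among arrays with the R mark. Probe sets 205039_s_at (-0.50), 227344_at (-0.27) and 216901_s_at (-0.20) passed with SB590885 against DMSO only with the block (adjusted p = 6.82e-05, 0.00356 and 0.0244). Between SB590885 and PD325901, 205039_s_at (-0.35) and 227344_at (-0.26) also passed only with the block (adjusted p = 0.00107 and 0.0045). The 205039_s_at difference was -0.38 among unmarked and -0.31 among R-marked arrays, and that of 227344_at -0.38 and -0.14. IKZF3, which encodes Aiolos, differed by -0.09 with SB590885 (adjusted p = 0.668) and by 0.08 with PD325901 from DMSO at 227030_at. Its probe set 221092_at passed only with the block (-0.20 with SB590885 against DMSO, adjusted p = 0.00996, and -0.21 against PD325901, adjusted p = 0.00761). Of 5 genes of the cereblon ubiquitin ligase, 0 passed in any comparison without the block. With it, 1 was higher and 1 lower with SB590885 against DMSO, 0 passed with PD325901 against DMSO, and 1 was higher and 2 lower between the inhibitors. The shares over all genes with the block were 17.9%, 7.07% and 17.2%. CRBN itself differed by 0.26 with SB590885 against DMSO (adjusted p = 0.779, 0.00959 with the block). The IKZF3 probe set 236301_at was lower with SB590885 than with PD325901 only with the block (-0.21, adjusted p = 0.0116).

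BCL6, the repressor of the germinal centre B cell programme, was higher with SB590885 than in either other group. Its main probe set (203140_at) read 9.08, 9.28, 9.05 and 8.50 with SB590885, 8.48, 8.35, 8.19 and 8.14 with PD325901, and 8.38, 8.40, 8.11 and 7.99 with DMSO. All SB590885 arrays lay above all others, the lowest (replicate 4) by a narrow margin. SB590885 exceeded DMSO by 0.76 (SE 0.15, a fold of 1.69; adjusted p = 0.0272, 1.93e-05 with the block) and PD325901 by 0.69 (adjusted p = 0.0428, 2.55e-05 with the block). Without any 1 of DMSO replicates 1, 3 and 4 or SB590885 replicates 1 to 3, the first call was lost (adjusted p 0.0585 to 0.0871). The second was kept only without DMSO replicate 4 or SB590885 replicate 4, and otherwise lost (adjusted p 0.0536 to 0.131). PD325901 against DMSO gave 0.07, with an interval of -0.27 to 0.40. Of the other BCL6 probe sets, 215990_s_at gave 0.18 against DMSO (adjusted p = 0.31, 0.0188 with the block) and 228758_at gave 0.18 (adjusted p = 0.424). Against PD325901, 215990_s_at gave 0.24 (adjusted p = 0.142, 0.00303 with the block).

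The BCL6 promoter is shown because the motif BCL6 itself recognises resembles the STAT motif, and the gene is known to repress itself there. The window is chr3:187745419-187745718, minus strand, from RefSeq on GRCh38.p14. Capitals mark matches to TTCNNNGAA at bases 223 to 231, 246 to 254, 261 to 269 and 287 to 295.
BCL6: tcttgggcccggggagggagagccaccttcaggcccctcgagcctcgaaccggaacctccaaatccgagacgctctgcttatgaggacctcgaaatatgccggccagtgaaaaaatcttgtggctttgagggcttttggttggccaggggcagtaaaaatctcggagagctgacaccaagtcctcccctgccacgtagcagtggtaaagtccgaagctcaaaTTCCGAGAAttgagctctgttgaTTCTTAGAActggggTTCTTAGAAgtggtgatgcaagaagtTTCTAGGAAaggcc
At least 1 match occurs in 7.66% of RefSeq promoter windows, and 4 or more in 7 of 35116 windows (0.0199%). Promoters were matched for 7 of the 10 members. The other motifs searched on both strands were TGACGTGG (0.729% of windows), GTAAACA (3.42%), ATGCAAAT (1.77%), CACGTG (7.26%), TGACGTCA (1.85%), CCGGAAGT (4.14%) and the interferon response motif (3.57%), and of these only TGACGTCA matched a member's window, that of BACH2. No match says only that these letters are not in the window.

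PAX5, the factor that commits cells to the B lineage and is normally silenced in plasma cells, was lower with SB590885. Probe set 221969_at read 7.20, 7.28, 7.34 and 7.26 with SB590885, 7.57, 7.49, 7.27 and 7.38 with PD325901, and 7.86, 7.88, 7.61 and 7.52 with DMSO. The mean over the 12 arrays was 7.47, beside the table's median of 6.92. SB590885 lay below DMSO without overlap. The difference was -0.45 (SE 0.09, a fold of 0.733; adjusted p = 0.0238), -0.63 among unmarked and -0.27 among R-marked arrays. It was lost without DMSO replicates 1 or 2 or SB590885 replicates 1, 2 or 4, each left out singly (adjusted p 0.05004 to 0.0837). PD325901 against DMSO gave -0.29 (adjusted p = 0.397, 0.0236 with the block), and the 2 inhibitors differed by -0.16 (adjusted p = 0.58). The other PAX5 probe set (206802_at) differed by 0.01 with SB590885. BACH2, a repressor that delays plasma cell differentiation, passed in no comparison. Its 221234_s_at values were 9.01, 8.94, 8.52 and 8.15 with SB590885, 9.12, 8.74, 8.62 and 8.76 with PD325901, and 8.85, 8.52, 8.61 and 8.50 with DMSO. A second BACH2 probe set (227173_s_at) gave 0.15 with SB590885 and 0.22 with PD325901 against DMSO and passed in neither. With SB590885, 221234_s_at differed from DMSO by 0.29 among unmarked and by -0.22 among R-marked arrays.

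**Figure D3:**
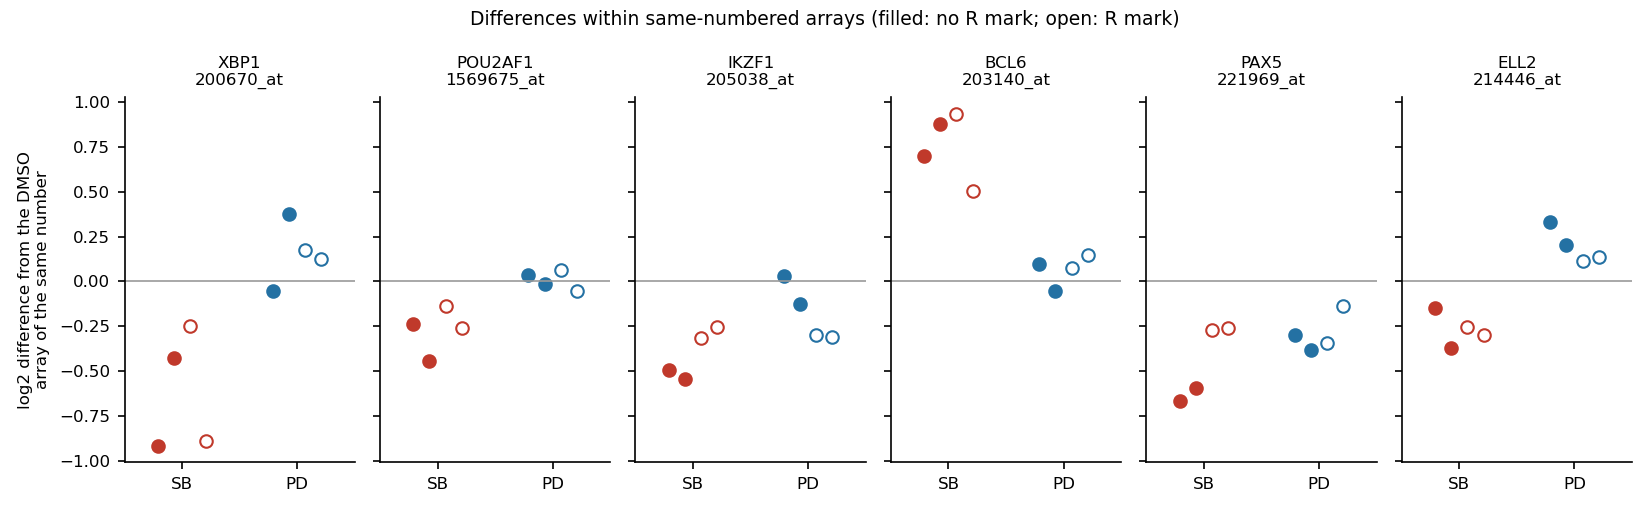
Differences of each SB590885 (SB) and PD325901 (PD) array from the same-numbered DMSO array, in log2, for the 6 probe sets that passed in any comparison. For BCL6 the SB590885 differences are all above 0, and for XBP1, PAX5, POU2AF1 and IKZF1 all below 0.

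Genes that the members control moved in several directions. Among 10 genes repressed by PRDM1, which include BCL6 and PAX5 themselves, SB590885 against DMSO also lowered ID3, an inhibitor of E proteins (-0.72, adjusted p = 0.0415). Between SB590885 and PD325901, BLNK, a B cell receptor adaptor, was lower (-0.91, adjusted p = 0.00271). Against DMSO, BLNK differed by -0.43 with SB590885 (adjusted p = 0.101, 0.00114 with the block) and by 0.48 with PD325901 (adjusted p = 0.211, 0.00144 with the block). With the block, 1 of the 10 was higher and 3 lower with SB590885 against DMSO, 1 higher and 2 lower with PD325901 against DMSO, and 1 higher and 3 lower between the inhibitors. BLNK was also the 1 of 7 PAX5-activated genes to pass, with or without the block. Of 10 BCL6-repressed genes, 0 passed in any comparison without the block. With it, 1 was higher and 2 lower with SB590885 against DMSO, 1 higher and 3 lower with PD325901 against DMSO, and 3 higher and 0 lower between the inhibitors. CDKN1A, a cell cycle inhibitor gene, differed from DMSO by 0.35 with SB590885 (adjusted p = 0.275, 0.0345 with the block) and by 0.55 with PD325901 (adjusted p = 0.189, 0.00615 with the block). ID2, an inhibitor of E proteins, differed by -0.54 with SB590885 (adjusted p = 0.623, 0.00907 with the block) and by -1.21 with PD325901 (adjusted p = 0.26, 3.55e-05 with the block). Between the inhibitors, CD44, an adhesion receptor, differed by 0.68 (adjusted p = 0.154, 7.2e-05 with the block) and ID2 by 0.68 (adjusted p = 0.459, 0.00193 with the block). Among 21 partner factors, KLF2 (0.60, adjusted p = 0.042) and ZBTB20 (0.40, adjusted p = 0.0451) were higher with SB590885 than with DMSO. The 1 partner factor that passed as lower was ID3 (-0.72, adjusted p = 0.0415), which is in this list as well. KLF2 was also higher than with PD325901 (0.60, adjusted p = 0.0427). With the block, 4 of the 21 were higher and 5 lower with SB590885 against DMSO, 0 higher and 3 lower with PD325901 against DMSO, and 4 higher and 2 lower between the inhibitors. Of 4 BCL6 corepressors, 0 passed without the block. With it, HDAC3 and CTBP1 were higher with SB590885 than with DMSO (0.15 and 0.18; adjusted p = 0.0457 and 0.0191) and than with PD325901 (0.25 and 0.28; adjusted p = 0.00181 and 0.00117). Over all genes by their highest-mean probe set, 2.83%, 0.556% and 2.52% passed in the 3 comparisons, and 17.9%, 7.07% and 17.2% with the block.

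Plasma cell surface and signalling markers were mostly lower where they passed. With SB590885 against DMSO, FCRL5 (-0.81, adjusted p = 0.00433), SLAMF7 (-0.90, adjusted p = 0.0193), LAX1 (-0.60, adjusted p = 0.024) and SDC1, the syndecan CD138 (-0.55, adjusted p = 0.0499) were lower. PIM2, a survival kinase, was higher (0.81, adjusted p = 0.0177). The other 9 of 14 markers did not pass, and with the block 1 was higher and 6 lower. With PD325901 against DMSO 0 of 14 passed, and with the block 3 were higher and 1 lower. TNFRSF17, the receptor BCMA, differed by 0.43 (adjusted p = 0.288, 0.00659 with the block) and SDC1 by -0.41 (adjusted p = 0.412, 0.00121 with the block). Between SB590885 and PD325901, 4 of 14 were lower and 1 higher, and with the block 8 lower and 1 higher. MZB1, a chaperone of antibody assembly (-0.61, adjusted p = 0.00941), SLAMF7 (-1.01, adjusted p = 0.0106), FCRL5 (-0.51, adjusted p = 0.0365) and TNFRSF17 (-0.53, adjusted p = 0.0423) were lower with SB590885, and PIM2 was higher (0.74, adjusted p = 0.0265). Over all genes, 2.83%, 0.556% and 2.52% passed in the 3 comparisons without the block, and 17.9%, 7.07% and 17.2% with it. The log2 of the summed linear levels of the 14 markers ranged from 15.28 to 15.63 with SB590885, 15.59 to 15.92 with PD325901 and 15.48 to 15.75 with DMSO. Of 13 B cell markers, 0 passed against DMSO with either inhibitor without the block. With it, CD79B (-0.26, adjusted p = 0.00761) and BLNK were lower with SB590885, and BLNK was higher with PD325901. Between the inhibitors BLNK passed, and CD79B (-0.29) only with the block (adjusted p = 0.00343). Of 7 monocyte markers 0 passed with or without the block. Of 11 T and NK cell markers, TRAT1 (-1.06, adjusted p = 0.0122) and CD8A (-0.33, adjusted p = 0.0347) were lower with SB590885 than with DMSO. Against PD325901, TRAT1 was lower (-1.02, adjusted p = 0.0133) and CD8A passed only with the block (-0.30, adjusted p = 0.0582, 0.000469 with the block). In the SB590885, PD325901 and DMSO groups 5, 6 and 5 of the 11 lay above the table's median. The log2 of their summed linear levels was 10.31 to 10.51, 10.56 to 10.68 and 10.52 to 10.68 in the SB590885, PD325901 and DMSO groups. The part of other cell types was not tested.

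**Figure D4:**
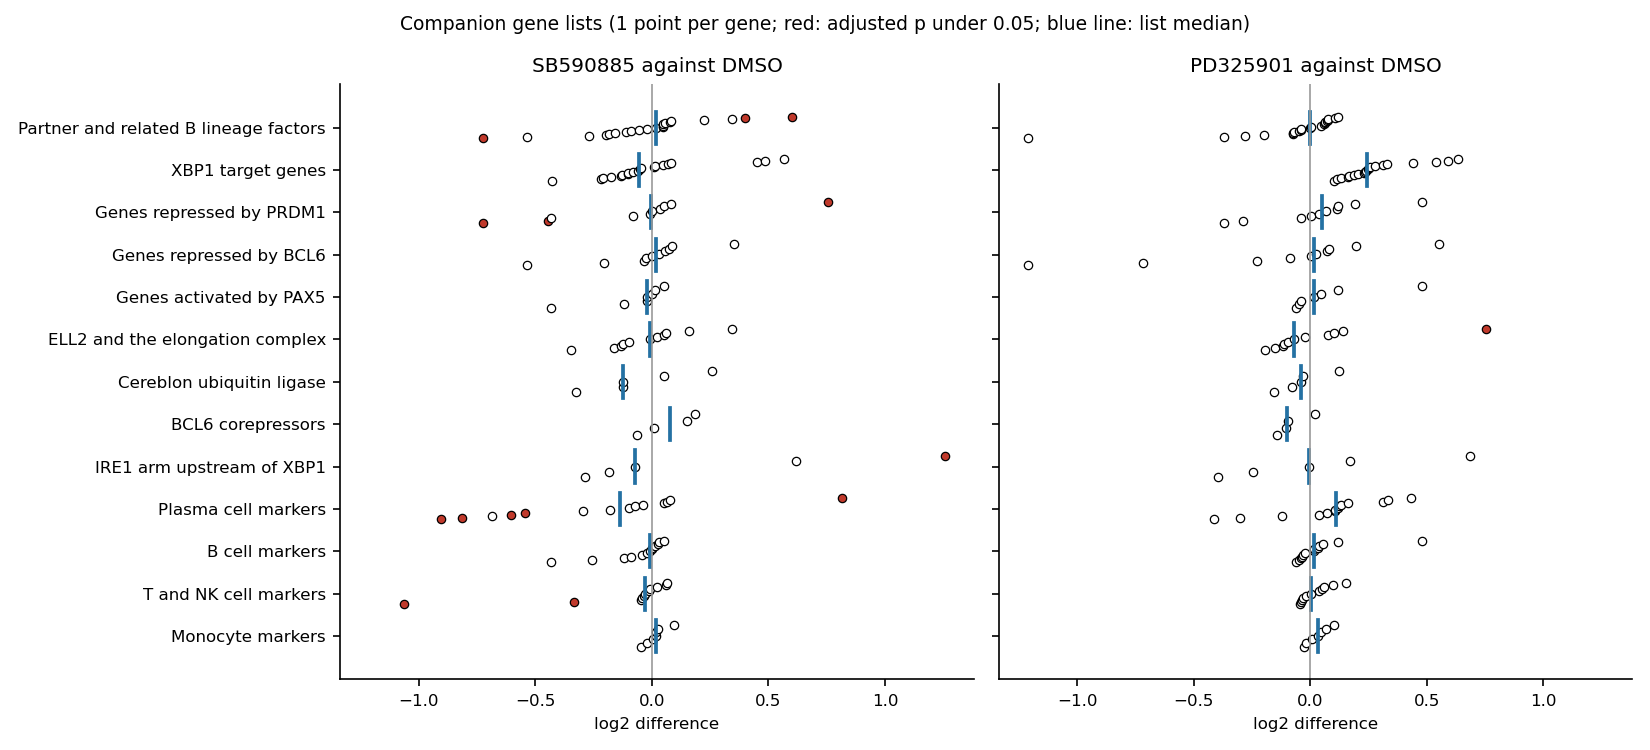
Differences in log2 level of the genes in each companion list, for SB590885 (SB) and PD325901 (PD) against DMSO; each point is a gene, red points passed an adjusted p of 0.05, and blue marks the list's median. The XBP1 targets lie above 0 with PD325901 (median 0.24) and about 0 with SB590885 (median -0.06).

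Across the 12 arrays, after the means of the marked and unmarked arrays were removed, the genes most like XBP1 among 12512 were USP48 (Pearson r 0.962), MANEA (0.960) and GAS2 (0.959), and the most opposed was USP30 (-0.972). For BCL6 they were ASNS (0.973), SPEN-AS1 (0.969) and OSR2 (0.968), with PUS7L the most opposed (-0.979). For PAX5 they were TTYH2 (0.967), SLC19A1 (0.966) and PUS1 (0.960), with MIB2 the most opposed (-0.945). Among the members, IKZF1 and PAX5 varied most alike (0.863), followed by XBP1 with POU2AF1 (0.820), and IKZF1 and BCL6 were the most opposed (-0.837). These values describe the 12 arrays, which share the group differences.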

How the data were processed

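The authors deposited log2 expression values per probe set, made with RMA in R 3.0.1 per the submitters' processing notes. The notes do not state whether all arrays were normalised jointly. The table held 54675 probe sets, and its 62 Affymetrix controls were removed. The annotation gave 41091 probe sets 1 symbol, 1801 several and 11721 none, and symbols were updated through gene identifiers to GRCh38.p14 RefSeq names. A group-means model over all 12 arrays was fitted with limma 3.58.1 in R 4.3.3 on all 54613 probe sets, with Benjamini-Hochberg adjustment over all of them, and the script was tested on simulated data. Groups come from the labels. The arrays are biological replicates per the design text, so p-values reflect variation among arrays, whose number limits precision. Deviations from the group means correlated between same-numbered arrays (0.544 to 0.913, 12 pairs; 12 of 12 arrays best with their own number), so a fit with the replicate number as a block was also made. A gene is represented by its highest probe set with 1 symbol (19775 genes). All member probe sets are accounted for; in each companion list up to 4 genes with the smallest p among those that passed are named, or values of the smallest p otherwise. Other settings changed the normalisation, variance trend, probe set choice and arrays included. The members and lists were chosen with earlier results of these data known. Promoters came from RefSeq.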

Additional observations from a re-analysis of the deposited data

Results flagged for a closer look

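Among 99 groups of 4 arrays, 1 array lay far from the other arrays of its group in 3, where chance flags about 1 in 20 groups. IRF4 (204562_at) was 11.99 on DMSO replicate 2, against 11.88 on each of the other DMSO arrays. PRDM1 (217192_s_at) was 7.997 on DMSO replicate 4, against 8.27 to 8.32 on the others. IKZF1 (216901_s_at) was 6.62 on DMSO replicate 4, against 6.47 to 6.48 on the others.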

How the results depend on the processing

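Counts of calls depended on the setting, and the cause was not tested. For SB590885 against DMSO the 5 member probe sets became 12 with the replicate block, 12 with a term for the R mark, 12 on unmarked arrays, 2 with centred arrays and 3 with 1 probe set a gene, and 0 to 6 when 1 array was left out (0 without DMSO replicate 1, without SB590885 replicate 2, without replicate 2 of all groups, and without DMSO and PD325901 replicate 2, an alternative chosen after seeing the data). For PD325901 against DMSO the 0 became 2, 2 and 1 under the first 3 settings, 2 on R-marked arrays and 1 after quantile normalisation. For SB590885 against PD325901 the 4 became 13, 13, 15, 2 with centred arrays, 8 after quantile normalisation and 2 with 1 probe set a gene, and 3 to 4 when 1 array was left out (0 without replicate 2 of all groups, 2 without DMSO and PD325901 replicate 2).

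Over all probe sets the 1069 of SB590885 against DMSO became 7311 with the replicate block, 6532 with the R term, 5660 on unmarked and 1897 on R-marked arrays, 614 with centred arrays or a variance trend, 2646 after quantile normalisation, 649 and 674 by gene from the highest-mean or the averaged probe sets, 385 to 1136 when 1 array was left out, and 114 without replicate 2 and 498 without DMSO and PD325901 replicate 2. The 189 of PD325901 against DMSO became 2625, 2016, 348, 1813, 501 after quantile normalisation, 117 and 121 by gene, 106 to 188, 89 and 101. The 973 of SB590885 against PD325901 became 7036, 6284, 5352, 3052, 577 centred, 2558 after quantile normalisation, 558 and 541 by gene, 501 to 916, 258 and 620. List genes called were 13, 1 and 13 in the 3 comparisons. With the block they were 41, 30 and 51, with the R term 38, 25 and 48, and on unmarked arrays 27, 4 and 39. With centred arrays they were 6 for SB590885 against DMSO and 8 for SB590885 against PD325901. For PD325901 against DMSO and SB590885 against PD325901 they were 15 and 25 on R-marked arrays and 13 and 30 after quantile normalisation. With 1 array left out they were 3 to 12, 1 and 6 to 12, without replicate 2 of all groups 0, 0 and 6, and without DMSO and PD325901 replicate 2 4, 1 and 7.

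Called differences weakened in some settings. Between the inhibitors, XBP1 did not pass in 2 settings (adjusted p 0.0561 to 0.082), ELL2 (214446_at) in 2 (0.0535 to 0.113), POU2AF1 (1569675_at) in 2 (0.121 to 0.127) and BCL6 in 13. With SB590885 against DMSO, XBP1 did not pass in 12 settings, IKZF1 (205038_at) in 13, BCL6 in 9, PAX5 in 9 and POU2AF1 (1569675_at) in 6. Uncalled differences that changed sign were few. After quantile normalisation IRF4 was 0.014 for SB590885 and 0.086 for PD325901 against DMSO, and POU2AF1 (1569675_at) -0.0086 for PD325901, or -0.011 with centred arrays. On unmarked arrays IRF4 was 0.087 for PD325901 against DMSO and BACH2 0.044 for SB590885 against PD325901. On R-marked arrays IRF4 was 0.045, PRDM1 0.027 and IKZF1 (205038_at) 0.017 for SB590885 against PD325901, and BACH2 -0.22 for SB590885 against DMSO. PRDM1 was -0.034 by the mean probe set, and BACH2 -0.092 without replicate 2 of all groups, for SB590885 against DMSO. With 1 array left out, IRF4 (-0.065 to 0.047), POU2AF1 (-0.015 to 0.033) and BCL6 (-0.010 to 0.13) for PD325901 against DMSO spanned 0, as did PRDM1 (-0.033 to 0.17), BACH2 (-0.082 to 0.20) and ELL2 (226099_at, -0.24 to 0.0017) for SB590885 against DMSO and BACH2 (-0.27 to 0.012) for SB590885 against PD325901. Signal near background limits the dim probe sets.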
